A study of Homo sapiens with 12 samples.

Results

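The transcripts of 10 heat shock genes were followed in A375 cells, a human melanoma line. The members were set by name: the inducible HSP70 genes HSPA1A and HSPA1B, the constitutive HSP70 gene HSPA8, HSP90AA1, HSPH1, DNAJB1, HSPB1, BAG3, and the mitochondrial pair HSPD1 and HSPE1. All 10 were found among the 26475 entries of the count table, and all 10 were among the 15353 genes that passed the filter on low counts and were tested. Cells received DMSO (the vehicle), XL413 at 1 µM, OF1 at 1 µM, or both at 1 µM each (the combination), for 24 h, with 3 libraries per group. XL413 inhibits CDC7, a kinase that starts DNA replication, and OF1 inhibits BRPF1/2/3, bromodomain proteins that hold histone acetyltransferase complexes together. All groups are the same line with no genetic change named. RNA was selected for poly(A) tails, and the series measures transcripts, not chaperone protein.

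Heat shock proteins are chaperones that hold or refold other proteins. HSP70 works in cycles of ATP binding, which J-domain proteins such as DNAJB1 start and which nucleotide exchange factors such as HSPH1 and BAG3 end. HSP90 completes the folding of many kinases and receptors, HSPB1 holds unfolded proteins without ATP, and HSPD1 with its lid HSPE1 forms the folding chamber of the mitochondrial matrix. Under proteotoxic stress HSF1, the main heat shock transcription factor, binds arrays of inverted GAA units called heat shock elements and raises many of these genes together. Tumour cells often keep several of them high without heat.

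The members differ in how their starts are built, and the DNA is shown first because HSPA1A and HSPA1B, the members called with XL413 below, are near copies of each other. The start-site windows are from RefSeq (GRCh38.p14), 250 bases before to 50 after each listed start, with 14 windows for the 10 members. HSPA1A lies on chromosome 6 at 31815464 to 31817946 (GENCODE, plus strand) and HSPA1B at 31827735 to 31830255 (GENCODE, plus strand). By their RefSeq ends the genes are 9795 bases apart. Their 250 upstream bases were 93.6% identical, with 14 mismatches and 2 gap positions. A stretch of each is given 5′ to 3′, chr6:31815293-31815463 for HSPA1A and chr6:31827488-31827660 for HSPA1B, with the heat shock element of 2 units in capitals.
HSPA1A: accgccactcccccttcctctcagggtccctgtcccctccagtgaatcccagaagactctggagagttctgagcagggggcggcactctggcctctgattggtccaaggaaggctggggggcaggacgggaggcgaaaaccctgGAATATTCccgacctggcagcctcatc
HSPA1B: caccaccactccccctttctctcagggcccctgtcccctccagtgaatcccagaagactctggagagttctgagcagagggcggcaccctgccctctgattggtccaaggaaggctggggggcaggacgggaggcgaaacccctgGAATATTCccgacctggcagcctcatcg
Counted from the RefSeq start, the element ran from -106 to -99 in HSPA1A and from -105 to -98 in HSPA1B, with the same 8 letters in both.

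Other members carried different arrangements of the same unit. The 30-base stretches below show an array or element of each, on the gene's own strand with the matched bases in capitals, so that arrays of 3 units can be told from pairs.
HSPA8, chr11:123062170-123062199: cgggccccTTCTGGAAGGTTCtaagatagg
HSPA8, chr11:123062345-123062374: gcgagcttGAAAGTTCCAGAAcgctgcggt
HSP90AA1, chr14:102087111-102087140: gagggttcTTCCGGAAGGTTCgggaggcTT
HSPD1, chr2:197500061-197500090: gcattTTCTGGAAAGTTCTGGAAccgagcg
DNAJB1, chr19:14518426-14518455: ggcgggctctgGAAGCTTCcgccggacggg
HSPB1, chr7:76302480-76302509: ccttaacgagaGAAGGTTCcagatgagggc
HSPB1 and the HSPA1 genes read from the plus strand, and the others shown here from the minus strand. The last 2 capitals of the HSP90AA1 stretch begin a further match. The capitals of the HSPD1 stretch are 2 overlapping arrays of 3 units, from -245 to -233 and from -240 to -228, and so a longer run. The HSP90AA1, HSPD1 and DNAJB1 stretches belong to the windows of their second listed starts.

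A pair of units (GAANNTTC or TTCNNGAA, searched on both strands) was present in 7 of the 10 members and in 8 of their 14 windows, against 13.5% of all 35116 windows of the same length. An array of 3 units (GAANNTTCNNGAA or TTCNNGAANNTTC), which contains overlapping pairs, was present in HSPA8, HSP90AA1 and HSPD1. That was 3 of the 14 windows, against 0.49% of all windows. The CCAAT box (CCAAT or ATTGG) was found in 5 members and in 7 of the 14 windows, against 34.6% of all windows. The GC box (GGGCGG or CCGCCC) was found in 9 members and in 13 of the 14 windows, against 45.0%. The windows of HSPH1, BAG3 and HSPE1 held no pair of units in these letters. These matches describe sequence only and no binding was measured.

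**Figure D1:**
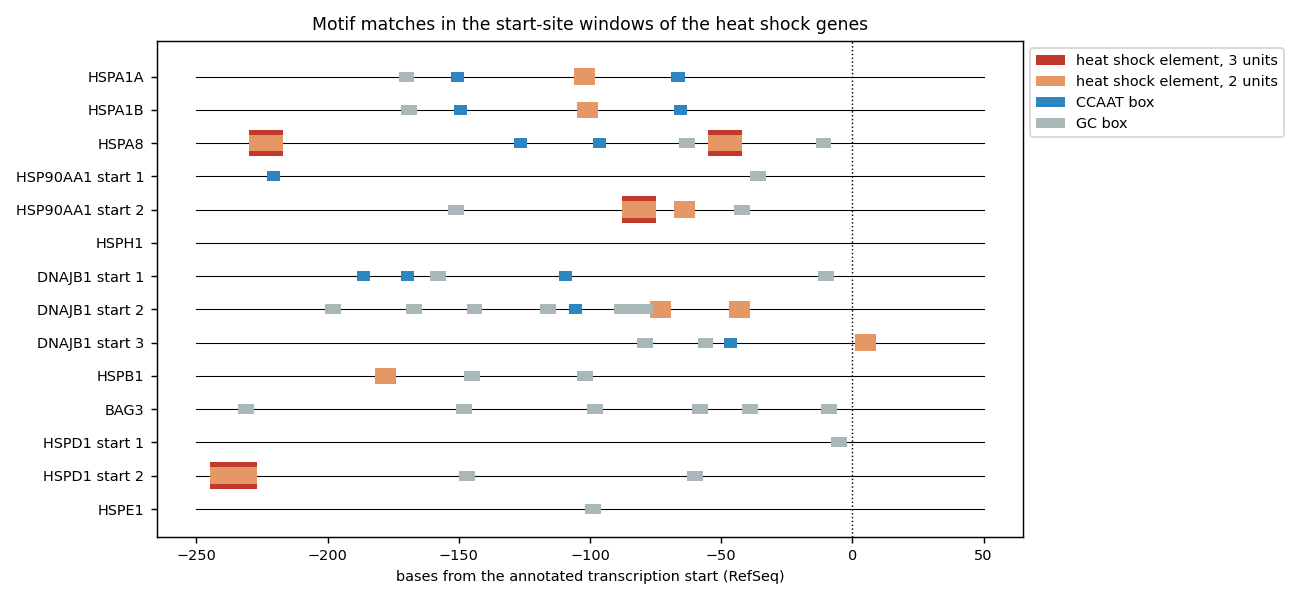
Positions of motif matches in the 14 RefSeq start-site windows of the 10 members, in bases from the annotated start (dotted line). Arrays of 3 heat shock units (red) are seen in HSPA8, HSP90AA1 and HSPD1, pairs alone (orange) in HSPA1A, HSPA1B, DNAJB1 and HSPB1, and neither in HSPH1, BAG3 and HSPE1.

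Libraries held 30499559 to 36062138 counts, and the common biological coefficient of variation was 0.049. Values below are CPM (counts scaled to a common library size with TMM factors) with SD over 3 libraries. Tests are edgeR quasi-likelihood tests on all 15353 genes with Benjamini-Hochberg adjustment over all of them, called at an adjusted p under 0.05, and ± after a log2 change is its standard error. The labelled cell type was checked against 14 melanoma markers: SOX10 stood at 318 to 386 CPM and PRAME at 152 to 170 CPM, whereas the pigment gene TYR had no count in any of the 12 libraries and MLANA did not exceed 0.24 CPM. Combination replicates 2 and 3 stood apart, at -33.4 and -31.5 on the first principal component (24.1% of the variance), where the other 10 libraries lay between -7.0 and 15.1. Transcripts of 34 skeletal muscle markers, which a melanoma line should lack, summed to 130 to 324 CPM in DMSO, 188 to 391 in XL413, 180 to 404 in OF1, and 145, 46.1 and 63.9 in combination replicates 1, 2 and 3. A set of 12 fibroblast markers summed to 279 to 351 CPM in DMSO, 306 to 357 in XL413, 319 to 364 in OF1 and 93.9 to 218 in the combination. In bulk RNA, fewer cells of a type and less RNA per cell cannot be told apart.

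Per kilobase of transcript, DMSO cells carried most message for HSPA8 and HSP90AA1 among the 10 members. HSPA8 stood at 1200 ± 8.3 CPM per kilobase (SD, n = 3) and HSP90AA1 at 1030 ± 6.6. The mitochondrial HSPD1 and HSPE1 followed at 462 ± 1.9 and 299 ± 11, then HSPB1 at 187 ± 8.7. DNAJB1 (98.9 ± 1) and HSPH1 (85.9 ± 1.8) lay above HSPA1A (57.1 ± 1.1), HSPA1B (49.6 ± 0.33) and BAG3 (45.4 ± 2.1). Each neighbouring pair in this order was further apart than the sum of its SDs. The lengths are those of the principal GENCODE transcripts, so the order rests on that choice. The 10 members together took 9077 ± 19 CPM in DMSO, 8880 ± 95 in XL413, 8775 ± 95 in OF1 and 8947 ± 32 in the combination.

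With XL413 alone, the inducible HSP70 genes HSPA1A and HSPA1B fell by 14.5% and 14.7%, and no other member passed the test. The call covered 2 of the 10 members, both lower, where 2.8% of all tested genes were called in either direction and 1.54% were called lower. The median log2 change of the members was -0.04, against 0 over all tested genes. The libraries of 5 members did not overlap and lay lower with XL413 (HSPA1A, HSPA1B, HSPA8, HSP90AA1 and DNAJB1), where 14.8% of all tested genes did so.

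HSPA1A, an HSP70 made on demand under stress, stood at 144.9, 141.5 and 139.3 CPM in DMSO and at 120, 115 and 128 CPM in XL413. Every XL413 library was below every DMSO library. The log2 change was -0.23 ± 0.05 (adjusted p = 0.0288, edgeR). HSPA1B, which encodes almost the same protein, stood at 125, 126 and 124 CPM in DMSO and at 109, 112 and 98.7 CPM in XL413, again without overlap. Its log2 change was -0.23 ± 0.05 (adjusted p = 0.0224, edgeR). Both calls were lost when any DMSO library was left out, that of HSPA1A also without XL413 replicate 1 or 2 and that of HSPA1B without XL413 replicate 3. With the muscle marker level of each library as a covariate the changes were -0.20 for HSPA1A (adjusted p = 0.0601, edgeR) and -0.22 for HSPA1B (adjusted p = 0.0522, edgeR), close to the sizes without it but past the threshold in neither.

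Reads cannot always be assigned between these copies. Of the 50-base windows of the HSPA1A transcript, 72.6% also occurred in HSPA1B, and 71.4% the other way, while none occurred in HSPA8. The split between the copies is therefore uncertain, and their sum is the firmer value. The sum was 270, 267 and 263 CPM in DMSO, and 229, 227 and 227 CPM in XL413. The XL413 libraries lay closer together in the sum (SD 1.3 CPM) than in either copy (SD 6.7 and 7), since the share given to HSPA1A ran from 50.6% to 56.6% among them. In the other groups the SD of the sum, in CPM, was not below those of the copies. It was 3.5 CPM in DMSO (copies 2.8 and 0.81), 3.5 in OF1 (3.3 and 3.5) and 13 in the combination (9.6 and 5). These SDs do not compare relative spread, since the sum stands higher. Its mean was 267 CPM in DMSO (copies 142 and 125), 247 in OF1 (136 and 111) and 239 in the combination (132 and 107). Counted as a single entry, the pair fell by 14.6% with XL413, a log2 change of -0.23 ± 0.04 (adjusted p = 0.00464, edgeR).

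**Figure D2:**
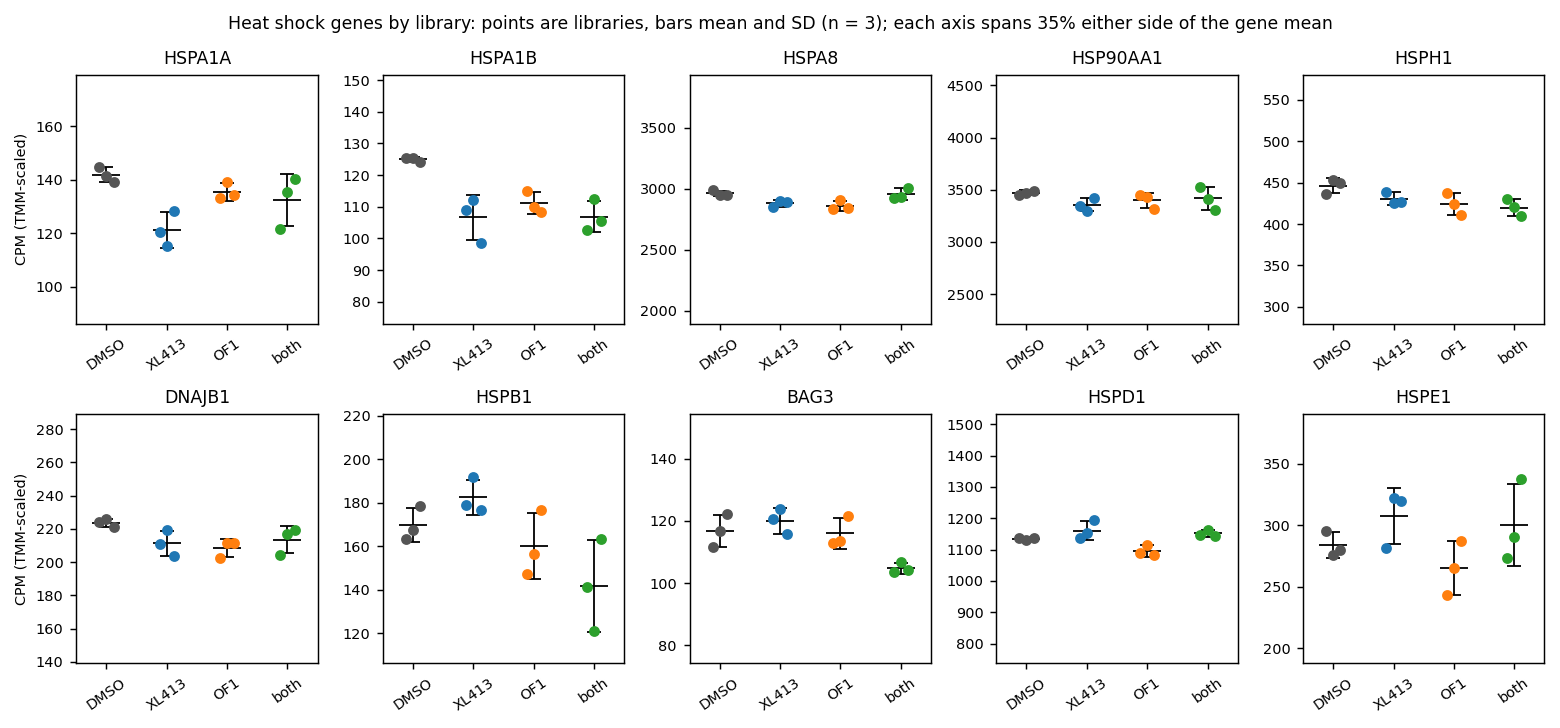
CPM of each member in the 12 libraries (points) with mean and SD of 3 libraries per group; each vertical axis spans 35% either side of the gene's mean and does not start at 0. HSPA1A and HSPA1B sat lower in XL413 than in DMSO without overlap, and BAG3 was lower in the combination (104 to 107 CPM) than in the other groups.

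The other 8 members did not pass with XL413. HSPA8, the constitutive HSP70, stood at 2987, 2952 and 2951 CPM in DMSO and 2849, 2902 and 2894 CPM in XL413. These libraries did not overlap, but the log2 change of -0.04 ± 0.02 did not pass (adjusted p = 0.389, edgeR), with a 95% interval of -0.09 to 0.01. DNAJB1, the J-domain partner that delivers clients to HSP70, had 223.9, 226.2 and 221.4 CPM in DMSO and 210.9, 219.2 and 203.9 CPM in XL413, a log2 change of -0.08 ± 0.04 (adjusted p = 0.237, edgeR). HSP90AA1, the inducible cytosolic HSP90, gave -0.05, and HSPH1, a large HSP70 relative that exchanges its nucleotide, gave -0.05. The 4 members with positive values were HSPE1 (0.12), HSPB1 (0.10), BAG3 (0.04) and HSPD1 (0.03), none of them past the threshold.

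With OF1 alone, no member passed the edgeR test, where 1.15% of all genes did. All 10 values were negative, with a median log2 change of -0.07, against 0 over all tested genes. Unadjusted p was under 0.05 for 4 of them, where it was for 14.4% of all tested genes. DESeq2 called 1 member (HSPA1B) among 305 genes, and limma-voom called 0 members among 192 genes. The libraries of 6 members lay lower without overlap, where 11.8% of all tested genes did so. The comparisons of XL413, OF1 and the combination with DMSO all use the same DMSO libraries.

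HSPA1B had 115, 110 and 108 CPM in OF1, below all DMSO libraries, and a log2 change of -0.17 ± 0.05 (adjusted p = 0.104, edgeR). HSPA1A had 133, 139 and 134 CPM, and its change of -0.07 ± 0.05 had an adjusted p of 0.589 by the same test. The sum of the copies was 248, 249 and 243 CPM in OF1, between the DMSO and the XL413 libraries, with a log2 change from DMSO of -0.11 ± 0.04 (adjusted p = 0.152, edgeR). HSPD1, the chamber subunit of the mitochondrial chaperonin, stood at 1137, 1130 and 1138 CPM in DMSO and 1090, 1115 and 1081 CPM in OF1. HSPD1 libraries did not overlap, and the log2 change of -0.05 ± 0.03 did not pass (adjusted p = 0.412, edgeR). DNAJB1 had 202.5, 211.7 and 211.4 CPM in OF1, a change of -0.10 ± 0.04 (adjusted p = 0.211, edgeR).

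With both inhibitors, HSPA1B and BAG3 fell against DMSO, and no member rose. The 2 members called are set beside 10.7% of all tested genes called in either direction and 5.07% called lower. The median log2 change was -0.08, against 0 over all tested genes. The libraries of 4 members lay lower without overlap (HSPA1B, HSPH1, DNAJB1 and BAG3), and HSPD1 lay higher, where 13.8% of all tested genes did so in each direction.

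HSPA1B stood at 103, 112 and 106 CPM in the combination, a log2 change from DMSO of -0.22 ± 0.05 (adjusted p = 0.00785, edgeR). The call was kept with any of the 12 libraries left out, and lost with the muscle marker covariate, at -0.25 (adjusted p = 0.0808, edgeR). HSPA1A was less even, at 122, 135 and 140 CPM, and overlapped DMSO. Its change of -0.10 ± 0.05 did not pass (adjusted p = 0.226, edgeR). Combination replicate 1 was the lowest of the 3 in both copies, and replicates 2 and 3 of HSPA1A lay close to or within the DMSO range. The sum of the copies was 224, 248 and 246 CPM in the combination, and it fell by 10.3% against DMSO (log2 change -0.16 ± 0.04, adjusted p = 0.0132, edgeR).

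BAG3 (chromosome 10, 119651370 to 119677819) links HSP70 to small heat shock proteins and to autophagy. It stood at 112, 117 and 122 CPM in DMSO, 120, 124 and 116 CPM in XL413, 113, 113 and 122 CPM in OF1, and 104, 107 and 104 CPM in the combination. Every combination library was below all 9 others. The log2 change was -0.16 ± 0.04 against DMSO (adjusted p = 0.0288, edgeR), and the call was lost without DMSO replicate 2, DMSO replicate 3 or combination replicate 2. The muscle marker covariate gave -0.10 (adjusted p = 0.466, edgeR). HSPB1 (chromosome 7, 76302544 to 76304295) encodes the small heat shock protein also called HSP27. It stood at 163, 168 and 179 CPM in DMSO and 141, 121 and 163 CPM in the combination. These groups met at 163 CPM, and the change of -0.26 ± 0.09 did not pass (adjusted p = 0.065, edgeR). With the replicate number as a block it did (adjusted p = 0.0359, edgeR).

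Adding OF1 to XL413 lowered HSPB1 and BAG3. These were 2 of the 10 members, where 3.41% of all tested genes were called in either direction and 2.35% were called lower. HSPB1 went from 179, 192 and 177 CPM in XL413 to 141, 121 and 163 CPM in the combination, a log2 change of -0.37 ± 0.09 (adjusted p = 0.0298, edgeR). The libraries of both members lay lower without overlap, where 10.4% of all tested genes did so. The HSPB1 call was lost when any XL413 library was left out, and without combination replicate 2. BAG3 changed by -0.19 ± 0.04 (adjusted p = 0.0198, edgeR), and that call was lost without XL413 replicate 1 or 2 or combination replicate 2. The median of the 10 members was 0 in this comparison. HSPA1A was 0.13 ± 0.05 higher on the log2 scale in the combination than in XL413 (adjusted p = 0.209, edgeR), and HSPA1B differed by 0 ± 0.05.

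Muscle and fibroblast transcripts were lower in the same comparison as HSPB1 and BAG3, and their part in these changes was not tested. Of the 33 tested muscle markers, 20 were called lower in the combination than in XL413 and 8 lower than in DMSO. Of the 12 fibroblast markers, 6 were called lower than in XL413 and 7 lower than in DMSO. Across all libraries HSPB1 and BAG3 varied together (Pearson r = 0.77 over 12 libraries, which share treatment groups, and 0.38 within groups). With the muscle marker level as a covariate, the change from XL413 was -0.17 for HSPB1 (adjusted p = 0.955, edgeR) and -0.11 for BAG3 (adjusted p = 0.94, edgeR). The same covariate took the number of all genes called in this comparison from 524 to 33. Combination replicate 1 held 141 CPM of HSPB1 and 104 CPM of BAG3, below every XL413 and every DMSO library. Its muscle sum of 145 CPM was also below every XL413 library, though within the DMSO range, and its fibroblast sum was below every library of both groups.

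**Figure D3:**
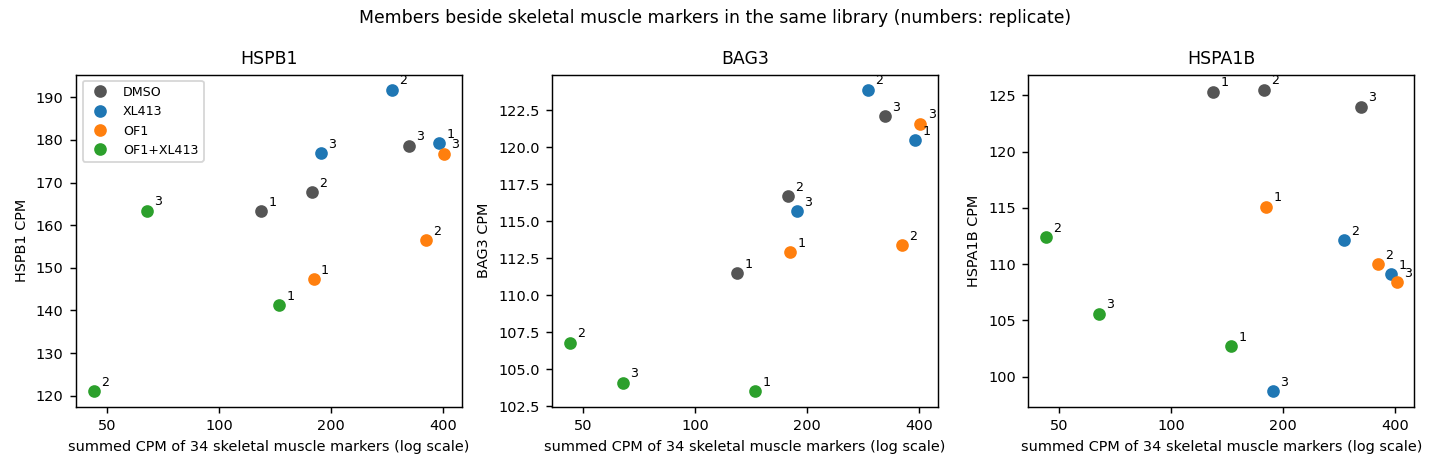
CPM of HSPB1, BAG3 and HSPA1B in each library against the summed CPM of 34 skeletal muscle markers in the same library (log scale), coloured by group and numbered by replicate. Combination replicates 2 and 3 lie at the lowest muscle sums (46.1 and 63.9 CPM), and HSPA1B was highest in the 3 DMSO libraries across muscle sums of 130 to 324 CPM.

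Adding XL413 to OF1 called no member in edgeR, where 5.5% of all genes were called. Unadjusted p was under 0.05 for 3 members, where it was for 22.5% of all tested genes. DESeq2 called 1 member (BAG3) among 1014 genes, and limma-voom called 0 members among 843 genes. BAG3 was nearest the threshold at -0.15 ± 0.04 (adjusted p = 0.0563, edgeR). On the positive side were the mitochondrial pair: HSPE1, the lid of the chamber, gave 0.18 ± 0.07 (adjusted p = 0.166, edgeR) and HSPD1 gave 0.07 ± 0.03 (adjusted p = 0.127, edgeR).

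The test of whether the effects of both inhibitors add up on the log2 scale gave no call among the members and none among all 15353 genes in edgeR (0%). Unadjusted p was under 0.05 for 6 of the 10 members, where it was for 10.2% of all tested genes. DESeq2 called 109 genes and limma-voom 0, none of them a member. The values were 0.19 ± 0.07 for HSPA1A and 0.17 ± 0.07 for HSPA1B, and -0.28 ± 0.12 for HSPB1 and -0.19 ± 0.06 for BAG3. A positive value means a level above the sum of the single effects, and none of these passed. The muscle markers had a median of -2.71 in the same test, with an unadjusted p under 0.05 for 29 of 33. With the muscle marker covariate the values were 0.03 for HSPA1A, 0.13 for HSPA1B, -0.03 for HSPB1 and -0.08 for BAG3, and the part of the muscle level in them was not tested. Without combination replicate 1, HSPA1A alone among the members was called. Over the fits with 1 library left out, this test called from 0 to 362 of all genes.

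Averaged over the absence and presence of OF1, XL413 lowered HSPA1A by 0.13 ± 0.04 on the log2 scale (adjusted p = 0.0284, edgeR). HSPA1B was lowered by 0.14 ± 0.03 (adjusted p = 0.014, edgeR). These were 2 of 10 members, where 12% of all genes were called and 5.63% were called lower. The 2 parts of the average were unlike. Without OF1 the change was -0.23 in both genes. With OF1 present it was -0.03 ± 0.05 for HSPA1A (adjusted p = 0.745, edgeR) and -0.06 ± 0.05 for HSPA1B (adjusted p = 0.521, edgeR). The averaged HSPA1A call was lost without DMSO replicate 1 or 2, XL413 replicate 2 or OF1 replicate 2. The mitochondrial pair had positive averages, 0.15 ± 0.05 for HSPE1 (adjusted p = 0.0826, edgeR) and 0.05 ± 0.02 for HSPD1 (adjusted p = 0.0889, edgeR), neither past the threshold. Averaged over XL413, OF1 lowered HSPB1 by 0.22 ± 0.06 (adjusted p = 0.0452, edgeR), where 4.94% of all genes were called and 2.74% were called lower. That call was lost when any library other than OF1 replicate 3 or combination replicate 3 was left out, and in DESeq2. Asked for any difference among the 4 groups, edgeR called 4 members (HSPA1A, HSPA1B, HSPB1 and BAG3), where 12.6% of all genes were called. Between 0 and 2 of them were called when any DMSO library, XL413 replicate 1 or 2, OF1 replicate 2 or combination replicate 2 was left out.

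**Figure D4:**
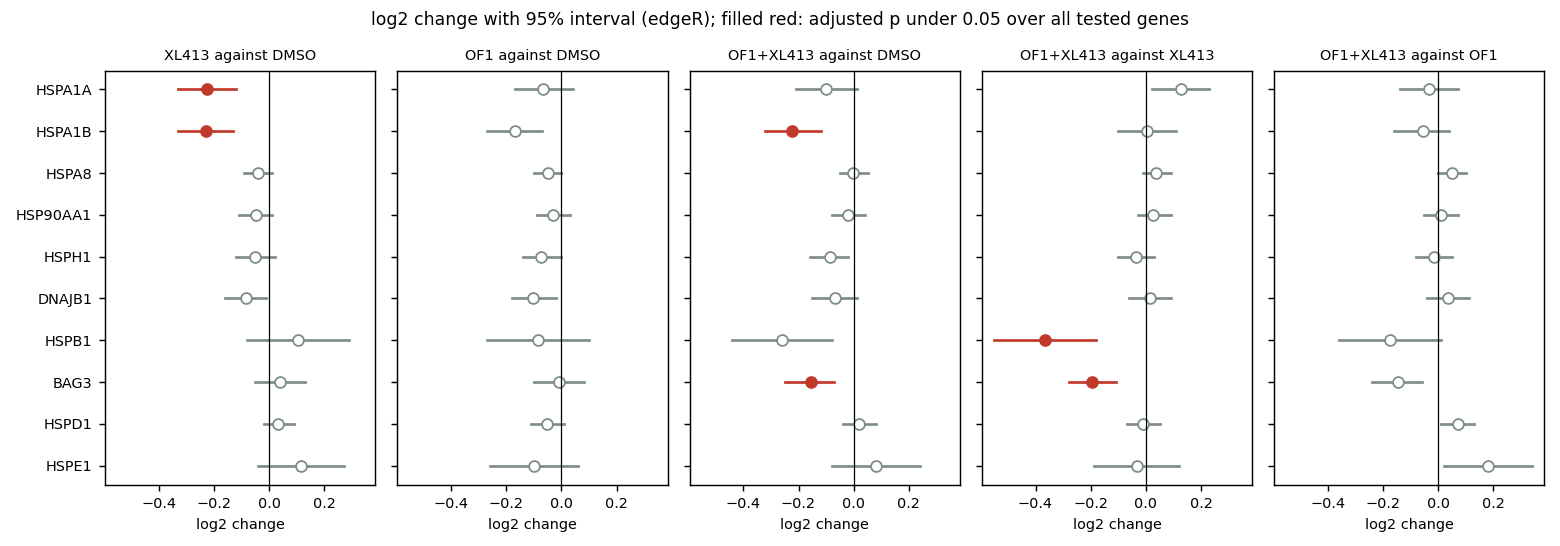
log2 change of each member in the 5 comparisons between pairs of groups with its 95% interval; filled red points passed at an adjusted p under 0.05 (edgeR). The filled points are HSPA1A and HSPA1B for XL413, HSPA1B and BAG3 for the combination against DMSO, and HSPB1 and BAG3 for the combination against XL413, all to the left of 0.

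The intervals bound what the libraries could show for the members that did not pass. For HSPA8 in the combination against DMSO the 95% interval was -3.6% to 3.4%, and for HSP90AA1 it was -5.5% to 2.6%. HSP90AA1 ran from 3299 to 3528 CPM over the 12 libraries, with its lowest library in XL413 and its highest in the combination. HSPE1 was wider, at -5.2% to 18% against DMSO, and its combination libraries stood at 273.3, 290.1 and 337.4 CPM. The interval rests on a spread estimated over all 12 libraries. The SD of HSPE1 was 3.6% of its mean in DMSO, 7.5% in XL413, 8.2% in OF1 and 11% in the combination. HSPH1 had 435.8, 453.1 and 449.4 CPM in DMSO and 430, 420.1 and 409.6 CPM in the combination, and its change of -0.09 ± 0.03 did not pass (adjusted p = 0.0988, edgeR).

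HSPD1 and HSPE1 are neighbours on chromosome 2, transcribed away from each other with RefSeq starts 104 bases apart. HSPE1 also shares exons with a readthrough entry, HSPE1-MOB4, which never exceeded 0.43% of the HSPE1 count. The pair correlated at r = 0.62 over the 12 libraries and at 0.15 within groups. Among all member pairs r ran from -0.57 (HSP90AA1 with HSPE1) to 0.77 (HSPB1 with BAG3), and it was 0.51 for HSPA1A with HSPA1B. As a description over 12 libraries, the genes most like 9 of the members in pattern were SMG5 for HSPA1B (r = 0.96), SUMF2 for HSPA1A (0.91), GAR1 for HSPA8 (0.91), ADAR for HSP90AA1 (0.93), CTNND1 for HSPH1 (0.96), USP5 for DNAJB1 (0.95), MRPL41 for HSPB1 (0.98), POMZP3 for BAG3 (0.97) and RPS26 for HSPE1 (0.99).

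HSF1, which drives the members under stress, was itself lower in the combination. It stood at 77.7, 78.6 and 83.2 CPM in DMSO and at 69.7, 69.2 and 74.2 CPM in the combination without overlap, a log2 change of -0.17 ± 0.04 (adjusted p = 0.0135, edgeR). The call was lost without DMSO replicate 3 or combination replicate 2, and with the muscle covariate the change was -0.14 (adjusted p = 0.259, edgeR). With XL413 it gave -0.05 and with OF1 -0.05, neither past the threshold. HSF2, a related factor, gave 0.17 ± 0.06 in the combination (adjusted p = 0.108, edgeR). HSF1 was the 1 of 8 tested heat shock factors and regulators called in that comparison (12.5%), a share near the 10.7% of all tested genes.

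In the companion lists of other chaperone systems most genes did not pass, and those called lay in both directions. Of all tested genes, 2.8% were called with XL413, 1.15% with OF1 and 10.7% with both, each against DMSO. For the combination the share was 3.41% against XL413 and 5.5% against OF1. Of 35 called values of the genes named here other than the members, 6 kept the call with each library left out in turn: ST13, PFDN5, CLPB and HSPA5 in the combination against DMSO, and HSPB6 against each inhibitor alone. With the muscle covariate 2 kept it, ST13 with XL413 and CLPB with both. Among 9 HSP70 exchange factors and regulators, ST13, which stabilises HSP70 bound to ADP, rose by 0.13 ± 0.03 with XL413 (adjusted p = 0.0257, edgeR) and by 0.16 ± 0.03 with both (adjusted p = 0.00274, edgeR), while BAG5 fell by 0.17 with XL413. BAG1 was 0.37 lower on the log2 scale in the combination than in XL413. None of the 9 tested other HSP70 and HSP110 genes passed in any of the 5 comparisons in edgeR, and 4 of them had an unadjusted p under 0.05 in the combination against DMSO, as did 25.6% of all tested genes. DESeq2 and limma-voom each called 0 of them in these 5 comparisons. HSPA6, a strictly stress-induced HSP70, stayed between 0.87 and 1.91 CPM in all 12 libraries.

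Of 16 HSP90 genes and cochaperones, PPP5C, a phosphatase bound to HSP90, fell with XL413 (-0.14 ± 0.04) and with both (-0.15 ± 0.04), and it was the only gene of the list called in either. CDC37, the kinase-loading cochaperone, was 0.18 higher in the combination than in OF1, and UNC45B, a myosin chaperone of muscle at no more than 1.29 CPM in any library, gave -2.99 in the same comparison. Of 15 J-domain genes, DNAJB6 and DNAJC8 rose with both, by 0.10 and 0.15, and made up 13.3% of the list. Of 14 TRiC chaperonin and prefoldin genes, PFDN4 and PFDN5 rose with both, by 0.22 ± 0.05 and 0.35 ± 0.07, and made up 14.3%. Both shares were near the 10.7% of all tested genes called in that comparison. CCT3 was 0.11 higher in the combination than in OF1.

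Of the 7 tested small heat shock proteins besides HSPB1, HSPB6 passed, and it fell by 0.94 ± 0.21 on the log2 scale with both (adjusted p = 0.0129, edgeR), from 3.81, 5.19 and 4.06 CPM to 3.35, 1.43 and 2.09 CPM. The median of the 7 was also -0.94. The 2 combination libraries lowest in HSPB6 were those lowest in muscle markers, and with the muscle covariate the change was -0.66 (adjusted p = 0.249, edgeR). Of 18 mitochondrial chaperones and proteases, CLPB, a disaggregase, fell in all 3 comparisons with DMSO, by 0.16 with XL413, 0.17 with OF1 and 0.23 with both. Its libraries ran from 51.4 to 52.8 CPM in DMSO and from 44.4 to 47.9 CPM in the 9 treated libraries. Against XL413, the combination held more LONP1 (0.17) and TIMM44 (0.23), and SPG7 was 0.18 higher in it than in OF1.

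Genes of 2 further lists bear on stress more widely. Of 12 other genes that HSF1 can induce, SERPINH1, the collagen chaperone, fell by 0.16 ± 0.03 with OF1 (adjusted p = 0.0418, edgeR), while with both RGS2 rose by 0.25 and FAM46A fell by 0.22. Of 10 chaperones of the endoplasmic reticulum, 3 fell and 0 rose in the combination against DMSO, including HSPA5 (-0.16 ± 0.03, adjusted p = 0.00125, edgeR) and HSP90B1 (-0.10 ± 0.03, adjusted p = 0.0236, edgeR). That was 30% of the list, where 10.7% of all tested genes were called and 5.07% were called lower. CALR fell by 0.14 with OF1, and CRELD2 was 0.31 lower in the combination than in XL413.

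**Figure D5:**
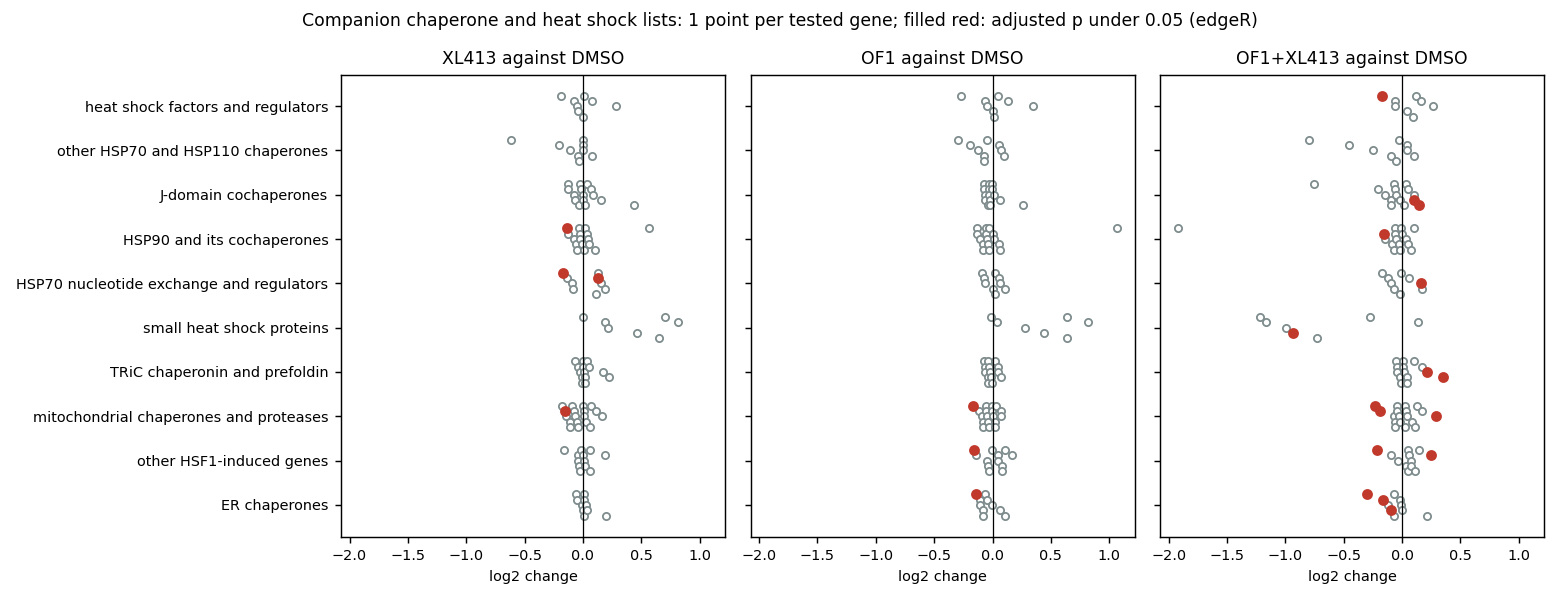
log2 change against DMSO of every tested gene in 10 companion lists (rows), for XL413, OF1 and the combination; filled red points passed at an adjusted p under 0.05 (edgeR). Most genes lie within a narrow band around 0, and the called ones fall on both sides of it, with HSPB6 (-0.94) the lowest called point.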

How the data were processed

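RNA-seq of 12 A375 libraries, 3 per treatment, was analysed. The table that the authors deposited holds expected counts (RSEM estimates, 10.6% of them not whole) by gene symbol, unscaled, and these were rounded. The submitters' processing notes name Bowtie2 (2.1.0), RSEM (1.2.15) and hg38. For annotation, read length and strand setting, the answer is: not given in the sources used here. Total counts ran from 30499559 to 36062138 per library. Counting error (the square root of the mean count) was 0.29% to 1.7% of a member's level. It exceeded the SD of replicates in 3 of 40 pairs of member and group, all in DMSO (DNAJB1, HSPA1B and HSPD1).

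In R 4.3.3, edgeR 4.0.16 kept 15353 genes by filterByExpr, applied TMM factors and fitted 1 mean per group to all 12 libraries (8 residual degrees of freedom). The tests of the 9 comparisons were edgeR's quasi-likelihood F tests with Benjamini-Hochberg adjustment over all tested genes, at a threshold of 0.05. The fit was tested on simulated data. The submitters speak of biological replicates. Since no label says that cultures were separate, the p-values reflect only how these libraries vary, which may be technical. No pair of replicates agreed within counting noise (chi-square per degree of freedom 2.33 to 13.95).

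The members and the 10 companion lists were chosen with earlier results of these data known. Named genes were all members, HSF1 and HSF2, and from each list up to 4 genes that passed in at least 1 of the 5 comparisons of group pairs, ordered by the p for any difference. HSPA6 was named after its values were seen. The likeness of other genes was Pearson r over the 12 libraries for genes at a mean log2 CPM of 1 or more, and the closest gene is named for each member except HSPD1, whose closest gene is not reported here. Alternatives were DESeq2 1.42.0, limma-voom (limma 3.58.1), other scalings and filters, counts not rounded, a replicate block, a 1.2-fold test, fits to fewer libraries, a muscle marker covariate and summed copies. Offsets for GC content and length were added after the data were seen.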

Additional observations from a re-analysis of the deposited data

How the results depend on the processing

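Of 2042 values of single members under alternatives, 1952 stayed on the same side of the threshold, 54 lost a call, 36 gained one and 0 called values reversed, and 55 values not past the threshold changed sign. Of 1144 such values of other named genes, 857 kept their side of the threshold, 284 lost a call, 3 gained one and 0 called values reversed. DESeq2, limma-voom, RLE and upper-quartile factors each called the same 2 members in each of XL413 against DMSO, the combination against DMSO and the combination against XL413. In a test against a 1.2-fold change, 0 members passed in these 3 comparisons and in both averages. Few of all 15353 genes did: 5, 34 and 33 in these comparisons, 11 in the average XL413 effect and 21 in the average OF1 effect. With the muscle covariate, 0 members passed in the same 3 comparisons and in the average OF1 effect, 1 in the average XL413 effect and 2 for any difference. Calls over all genes also went down with it. They went from 430 to 185 for XL413, 1645 to 265 for the combination against DMSO and 524 to 33 against XL413. For the average OF1 effect they went from 759 to 280, for the average XL413 effect from 1845 to 486, and for any difference from 1941 to 793. The summed HSPA1 copies gave 1 call by construction for XL413 against DMSO and for the average XL413 effect. DESeq2 called 1 member among 305 genes for OF1 against DMSO and 1 among 1014 genes for the combination against OF1. There a filter of 1 CPM in 3 libraries also called 1, among 857 genes. Fits to the compared groups alone called 1 member among 236 genes for OF1 against DMSO and 1 among 878 for the combination against DMSO. With combination replicate 1 alone, the log2 changes against XL413 were -0.37 for HSPB1 and -0.21 for BAG3. That fit assumes that the lone library varies like the other groups. The GC and length offsets, chosen after seeing the data, called 4 members for XL413, 1 for OF1 and 5 for the combination against DMSO. They called 1 for the combination against OF1, 4 for the average OF1 effect and 9 for any difference. They also raised the number of all genes called, for XL413 from 430 to 1164 and for OF1 from 176 to 375. The rise was from 1645 to 2294 for the combination against DMSO and from 845 to 1562 against OF1. It was from 759 to 1143 for the average OF1 effect and from 1941 to 3160 for any difference. The cause was not tested.

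With 1 library left out, members called ranged from 0 to 2 for XL413, from 1 to 3 for the combination against DMSO, from 0 to 3 against XL413, from 0 to 2 against OF1, from 0 to 1 for non-additivity, from 1 to 3 for the average XL413 effect, from 0 to 2 for the average OF1 effect and from 0 to 4 for any difference, and OF1 against DMSO stayed at 0. Genes called over these fits ranged from 86 to 722 for XL413, 42 to 388 for OF1, 728 to 2113 for the combination against DMSO, 168 to 828 against XL413 and 212 to 2227 against OF1. They ranged from 0 to 362 for non-additivity and from 1050 to 2903 for the average XL413 effect. For the average OF1 effect the range was 412 to 1117, and for any difference 1046 to 3102. Same-numbered libraries did not deviate together: r ran from -0.16 to 0.20 over 18 pairs, with 1 above 0.1, so the numbers were not taken as pairs. The replicate block called 2 members for XL413, 0 for OF1, 3 for the combination against DMSO, 2 against XL413, 0 against OF1, 0 for non-additivity, 3 for the average XL413 effect (HSPE1 added), 1 for the average OF1 effect and 4 for any difference. Of all genes the block called 361, 126, 1573, 476, 850, 2, 1845, 670 and 1860, in the same order. With 3 libraries per group, changes of a few percent in HSPE1 and HSPB1 were not detectable.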
